A study of Mus musculus with 6 samples.

Results

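The genes described here encode the phosphoinositide 3-kinase (PI3K), AKT and mTOR pathway, the signalling route by which growth factors, cytokines and nutrients set the growth and metabolism of a cell. The members were the rows of the deposited count table whose symbol is on a list of 36 genes, and all 36 were found among the 24420 genes of the table. They comprise class I PI3K subunits and their brakes, the kinases PDK1 and AKT, the TSC and RHEB switch, the subunits of the mTOR complexes, substrates of mTOR and AKT, the amino acid branch and the stress-induced inhibitors of mTORC1. The rule matched symbols and took no expression value.

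The study deleted *Ogt*, which encodes O-GlcNAc transferase (OGT), the enzyme that attaches single N-acetylglucosamine sugars to serines and threonines of nuclear and cytoplasmic proteins, in regulatory T (Treg) cells, the FOXP3-expressing CD4+ T cells that restrain immune responses. RNA was sequenced from Treg cells of C57BL/6 female mice, taken from lymph nodes with CD4 selection beads and sorted on YFP. The paper's methods for this sequencing name the beads and the sorting but no tissue. There were 3 OGT-sufficient samples of genotype Foxp3YFP-Cre/wt Ogtwt/fl and 3 OGT-deficient samples of genotype Foxp3YFP-Cre/wt Ogtfl/fl. No treatment or time is given for either group, the labels give no age, and the paper's methods give only a general age range for mice of the study. Both groups carried the Cre recombinase fused to YFP in 1 *Foxp3* allele and at least 1 floxed *Ogt* allele. *Foxp3* and *Ogt* are X-linked, so in these heterozygous females YFP marks the cells in which the X chromosome with Cre is active. The sources used here do not say whether the floxed allele of the Ogtwt/fl females lay on that chromosome, and OGT-sufficient is the name the study gives the group. Each sample carries a number of its own in the labels, but the number of mice behind a sample is not given in the sources used here, so the p-values measure the spread between these samples.

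Total counts per sample ranged from 3375454 to 4103552, and 10949 genes passed the filter on low counts and were tested. *Ogt* was counted 562, 632 and 957 times in the OGT-sufficient samples and 327, 266 and 368 times in the OGT-deficient samples, with no overlap, a log2 fold change of -1.21 and an edgeR adjusted p of 0.191. Of the Treg markers, *Foxp3* and *Cd4* were present in all 6 samples. The summed CPM (counts scaled to a common library size) of 7 Treg markers was 2632, 2954 and 1989 in OGT-sufficient and 2931, 2696 and 2707 in OGT-deficient samples. That of 10 macrophage markers was 3601, 3291 and 1688 in OGT-sufficient and 1267, 4471 and 5202 in OGT-deficient samples. The levels below are those of whole samples, and the part of macrophages in them was not tested. OGT-sufficient replicate 3 stood apart. It held counts for 18346 genes, against 14412 to 15197 in the other samples. Its summed level of 6 neutrophil markers was 245 CPM, against 11.0 to 41.0 CPM elsewhere. Its summed levels of B cell and erythroid markers were 285 and 852 CPM, against 75.9 to 135 CPM and 221 to 487 CPM in the other samples. Counts of *Rn45s*, a ribosomal RNA gene, were 24.2% to 37.1% of each sample's total. Since RNA was measured in bulk, fewer cells of a type and less RNA per cell cannot be told apart.

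Class I PI3K makes the membrane lipid PIP3, which recruits PDK1 and AKT. Active AKT restrains the TSC complex, so that the small GTPase RHEB can switch on mTOR complex 1 (mTORC1, with RAPTOR) on the lysosome, where the RAG GTPases bring it in response to amino acids, while mTOR complex 2 (mTORC2, with RICTOR) phosphorylates AKT and SGK1. In Treg cells the pathway is kept under tight control, as strong PI3K and AKT signalling destabilises FOXP3 and inhibits the forkhead FOXO factors, whereas mTORC1 activity is needed for the metabolism and function of effector Treg cells.

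The start regions of the members are shown for the binding motifs of 2 families of transcription factors that stand close to this pathway in Treg cells. The forkhead family includes FOXP3 and the FOXO factors inhibited by AKT, and the STAT family includes STAT5, which acts downstream of IL-2. The letters of a motif do not tell the factors of a family apart. RefSeq (GRCm38.p6, of which mm10 is another name) gave windows from 250 bases before to 50 bases after a transcription start for 34 of the 36 members, in 50 windows. *Rps6kb2* and *Eif4ebp1* had no window. The forkhead motif GTAAACA was searched on both strands and stood in 5 member windows of 4 genes, which is 10% of the member windows, against 3.65% of all 32851 windows. Capitals mark the motif, which reads TGTTTAC where it lies on the other strand, and the number after the strand is the position of the motif from the transcription start.
*Pik3cg*, chr12:32208546-32208572, minus strand, -92: ttttcctaaaGTAAACAaatgatcctc
*Akt1*, chr12:112675029-112675055, minus strand, -161: tctaccctctTGTTTACactcctggtg
*Mapkap1*, chr2:34406662-34406688, plus strand, -99 and, from a second start, -179: acacttgaagGTAAACAgaagttggtt
*Sesn1*, chr10:41810586-41810612, plus strand, 23: aaccttctacTGTTTACcagccttttg

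The STAT motif TTCNNNGAA, which is its own reverse complement, stood in 5 member windows of 5 genes, again 10%, against 8.3% of all windows. No window held a match to both motifs among these members, and the capitals mark the 9 bases of the motif.
*Mtor*, chr4:148448344-148448372, plus strand, -228: accggaagtgTTCGTGGAAgtgaccgaag
*Akt2*, chr7:27591382-27591410, plus strand, -160: tcactgggccTTCGGGGAAagcctacttg
*Sgk1*, chr10:21881951-21881979, plus strand, -223: gaaaaaccaaTTCAAAGAAccctcccaag
*Pdpk1*, chr17:24150892-24150920, minus strand, 13: acccaagggaTTCTGGGAAgggaaagaca
*Rraga*, chr4:86575558-86575586, plus strand, -105: aagaagcagtTTCTTAGAAttccaagggt
A match describes the letters of the window and is no evidence of binding. Among the 4 genes with the lowest p described below, *Pik3cg* held the forkhead motif, *Gsk3a* and *Pik3r1* held neither motif in their windows, and *Rps6kb2* had no window.

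All 36 members had counts in all 6 samples and passed the low-count filter. None was called at a false discovery rate (FDR) of 0.1 in edgeR's quasi-likelihood test, where 0.0274% of the 10949 genes tested were called, and the lowest adjusted p of a member was 0.517. The log2 fold changes of OGT-deficient over OGT-sufficient samples ran from -0.59 to 0.52, with 16 below 0 and 20 above. Their median was 0.04, against -0.02 over all genes tested. For 34 members, or 94.4%, the log2 fold change was within 0.5 of 0, as it was for 90.2% of all genes tested. The median standard error of a member was 0.150, against 0.198 over all genes tested.

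At an unadjusted p under 0.05 there were 4 of the 36 members, or 11.1%, and 7.1% of all genes tested lay under the same threshold. *Gsk3a* and *Rps6kb2* were lower in OGT-deficient cells, where 4.01% of all genes tested were lower at this threshold, and *Pik3cg* and *Pik3r1* were higher, where 3.09% were. Under an unadjusted p of 0.01, *Gsk3a* was the one member, or 2.78%, against 1.84% of all genes tested. With *Eif4ebp2* added, 5 members, or 13.9%, had no overlap in CPM between the groups, and 13.2% of all genes tested had none. These shares lie near those of the whole table. With DESeq2 there were 2 members under an unadjusted p of 0.05, *Pik3r1* and *Ddit4*, which is 5.56%, against 4.13% of all genes tested. Without OGT-deficient replicate 3 the quasi-likelihood test also gave 2, *Pik3cg* and *Gsk3a*, against 6.64% of all genes.

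**Figure D1:**
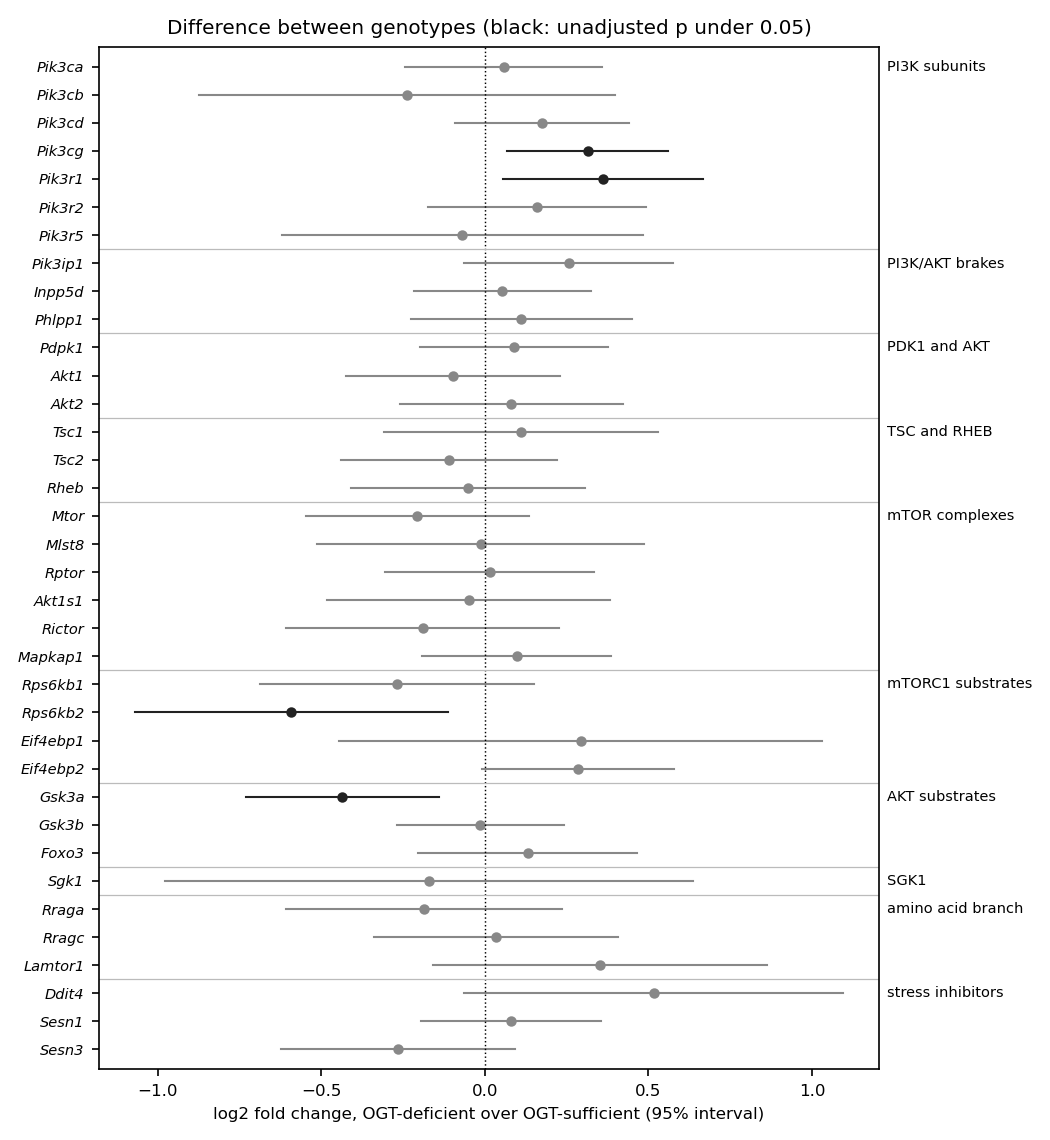
Log2 fold change of each of the 36 pathway genes, OGT-deficient over OGT-sufficient samples, as points with 95% intervals (edgeR, 3 samples a group), grouped by role; black marks an unadjusted p under 0.05. The points lie between -0.59 and 0.52, 4 intervals exclude 0 and no gene passed an FDR of 0.1.

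Per kilobase of exon, the members spanned a wide range of levels. *Ddit4*, the inducible inhibitor of mTORC1 also known as REDD1, was the most abundant at a mean of 75.4 CPM per kb over the 6 samples. The leukocyte PI3K catalytic subunit *Pik3cd* followed with 53.0 CPM per kb, the regulatory subunit *Pik3r1* with 49.4 CPM per kb and *Inpp5d* with 30.9 CPM per kb. At the other end were *Rps6kb2* with 1.99, *Mlst8* with 2.94, *Pik3cb* with 2.99 and *Eif4ebp1* with 3.14 CPM per kb. In a sample, 3 counts correspond to between 0.756 and 0.805 CPM, and the lowest value of any member was 4.79 CPM for *Eif4ebp1*.

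**Figure D2:**
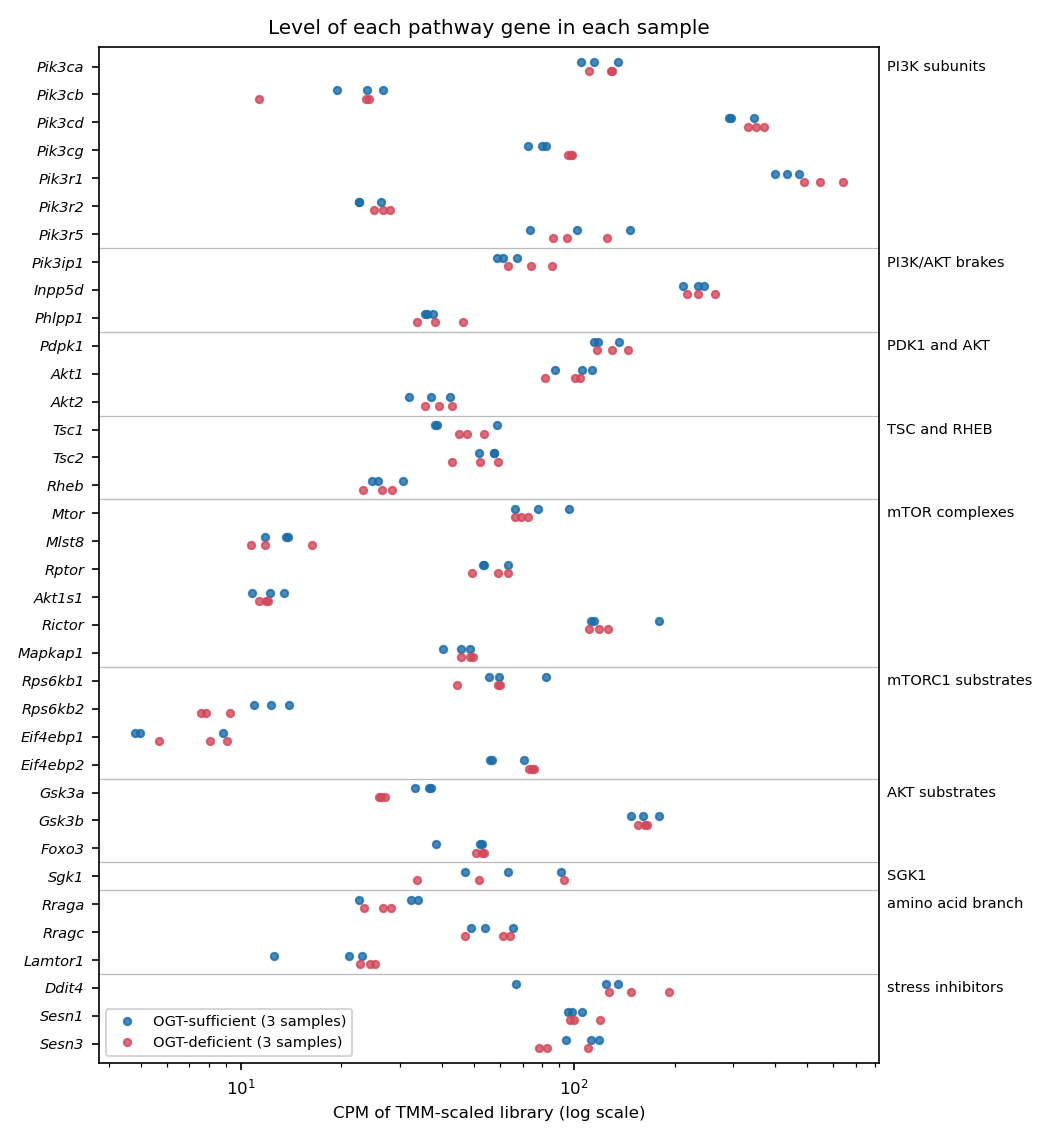
CPM of each pathway gene in each sample on a log scale, without division by gene length, in OGT-sufficient (blue) and OGT-deficient (red) samples, 3 a group, grouped by role. The samples of the 2 groups overlap for 31 of the 36 genes, and *Pik3r1* and *Pik3cd* have the highest values.

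The class I PI3K is a heterodimer of a catalytic and a regulatory subunit. *Pik3cg*, the catalytic subunit that answers G protein-coupled receptors in leukocytes, lies at chr12:32173473-32208659 on the minus strand in the GENCODE annotation. The forkhead match shown above lies inside this span, as its position was counted from a RefSeq start. Its level was 82.2, 79.9 and 72.9 CPM in the OGT-sufficient samples and 98.1, 98.3 and 95.8 CPM in the OGT-deficient samples. The OGT-deficient values were all higher and lay close together. This gave a log2 fold change of 0.31 with a standard error of 0.108 (edgeR adjusted p = 0.565).

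*Pik3r1* encodes the main regulatory subunit, which stabilises the catalytic subunits and holds them inactive until a receptor engages, and lies at chr13:101680563-101768217 on the minus strand. Its level was 434, 474 and 400 CPM in the OGT-sufficient samples and 547, 490 and 642 CPM in the OGT-deficient samples. The groups did not overlap, although the highest OGT-sufficient and the lowest OGT-deficient sample were close. The log2 fold change was 0.36, with a standard error of 0.135 (edgeR adjusted p = 0.635).

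*Pik3cd*, the catalytic subunit on which T cells mainly rely, reached 292, 295 and 348 CPM in OGT-sufficient and 372, 351 and 332 CPM in OGT-deficient samples. The groups overlapped through OGT-sufficient replicate 3, and the log2 fold change was 0.17 with a standard error of 0.117. The ubiquitous catalytic subunits *Pik3ca* and *Pik3cb* had log2 fold changes of 0.06 and -0.24, the regulatory subunit *Pik3r2* one of 0.16, and *Pik3r5*, the regulatory partner of *Pik3cg*, one of -0.07. *Pik3r5* spread from 73.4 to 147 CPM among the OGT-sufficient samples alone. Within the catalytic subunits, *Pik3cd* made up 66.0% ± 1.65 (SD, n = 3) of the CPM per kb in OGT-sufficient and 66.8% ± 1.89 (SD, n = 3) in OGT-deficient cells. The shares of the other catalytic subunits, *Pik3ca*, *Pik3cb* and *Pik3cg*, differed between the group means by -1.11, -1.05 and 1.34 percentage points, and the samples of the groups overlapped for each. The share of *Pik3r1* among the 3 regulatory subunits was 63.6% ± 7.37 in OGT-sufficient and 69.1% ± 0.310 in OGT-deficient cells (SD, n = 3), with overlapping samples.

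None of the 3 brakes on PI3K and AKT lay under an unadjusted p of 0.05. *Inpp5d*, which encodes the phosphatase SHIP1 that removes a phosphate from PIP3, was at 236, 245 and 212 CPM in OGT-sufficient and 218, 236 and 265 CPM in OGT-deficient samples. The groups overlapped over most of their ranges, with a log2 fold change of 0.05. *Pik3ip1*, a membrane protein that dampens PI3K in T cells, had a log2 fold change of 0.26 with a 95% interval from -0.06 to 0.57. For *Phlpp1*, an AKT phosphatase, it was 0.11 with an interval from -0.23 to 0.45.

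At the level of AKT, *Akt1* was at 106, 113 and 87.3 CPM in OGT-sufficient and 81.7, 101 and 104 CPM in OGT-deficient samples. *Akt2*, the isoform best known from insulin signalling, was at 31.9, 42.4 and 37.2 CPM and at 35.7, 42.8 and 39.4 CPM. The groups overlapped for both, with log2 fold changes of -0.10 and 0.08. *Akt1* made up 82.6% ± 2.46 of the CPM per kb of this pair in OGT-sufficient and 80.8% ± 1.18 in OGT-deficient cells (SD, n = 3). *Pdpk1*, which encodes the activating kinase PDK1, had a log2 fold change of 0.09 with a 95% interval from -0.20 to 0.38.

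The TSC complex is the GTPase-activating brake on RHEB. *Tsc2*, its catalytic subunit, was at 51.6, 57.4 and 57.4 CPM in OGT-sufficient and 42.9, 52.2 and 59.2 CPM in OGT-deficient samples, which overlapped. Its log2 fold change was -0.11, while that of its partner *Tsc1* was 0.11 and that of *Rheb* was -0.05, with standard errors between 0.146 and 0.185. In the annotation, *Tsc2* shares 7.2% of its exon bases with the opposite-strand gene *Pkd1*. That gene had a log2 fold change of -0.36 (edgeR adjusted p = 0.565), and its part in the counts of *Tsc2* was not tested. *Tsc1* was at 58.7 CPM in OGT-sufficient replicate 3 and at 38.9 and 38.1 CPM in the other OGT-sufficient samples, and without replicate 3 its log2 fold change was 0.35, under an unadjusted p of 0.05 in edgeR but not past an FDR of 0.1.

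The kinase gene *Mtor* was at 66.3, 77.8 and 96.5 CPM in OGT-sufficient and 72.7, 66.3 and 69.4 CPM in OGT-deficient samples. *Rictor*, the defining subunit of mTORC2, was at 113, 114 and 179 CPM and at 126, 111 and 119 CPM. For both genes OGT-sufficient replicate 3 was the highest sample and the others overlapped. *Mtor* had a log2 fold change of -0.21 and *Rictor* of -0.19 over all samples, and without OGT-sufficient replicate 3 they were -0.04 and 0.07. *Rptor*, the defining subunit of mTORC1, was at 53.5, 53.4 and 63.4 CPM in OGT-sufficient and 63.5, 59.2 and 49.3 CPM in OGT-deficient samples. Its log2 fold change was 0.01 with a 95% interval from -0.31 to 0.33. A change of either sign within that interval is not excluded by these samples. *Rptor* made up 35.1% ± 3.71 of the summed CPM per kb of *Rptor* and *Rictor* in OGT-sufficient and 37.7% ± 3.04 in OGT-deficient cells (SD, n = 3).

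The remaining subunits were *Mapkap1*, which encodes the mTORC2 subunit SIN1, *Mlst8*, which is shared by both complexes, and *Akt1s1*, which encodes the AKT-regulated mTORC1 inhibitor PRAS40. *Mapkap1*, the most abundant of the complex genes per kilobase, was at 48.7, 40.2 and 45.9 CPM in OGT-sufficient and 45.7, 48.6 and 49.8 CPM in OGT-deficient samples. It had a log2 fold change of 0.10, *Mlst8* of -0.01 and *Akt1s1* of -0.05. None of the 6 complex genes lay under an unadjusted p of 0.05. In the annotation, 22.5% of the exon bases of *Mlst8* are shared with the opposite-strand gene *Bricd5*, whose part in the counts of *Mlst8* was not tested.

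The S6 kinases and the eIF4E-binding proteins are the classic substrates through which mTORC1 promotes translation. *Rps6kb2*, the less abundant S6 kinase gene at chr19:4153991-4163354 on the minus strand, was counted 41, 52 and 47 times in OGT-sufficient and 36, 30 and 30 times in OGT-deficient samples. In CPM these were 10.9, 14.0 and 12.3 against 9.25, 7.56 and 7.83, with every OGT-deficient sample below every OGT-sufficient one. *Rps6kb2* thus had the lowest log2 fold change of the members, -0.59 with a standard error of 0.212 (edgeR adjusted p = 0.587). In the annotation, 23.7% of its exon bases are shared with the opposite-strand genes *Ptprcap* and *Coro1b*, which had log2 fold changes of -0.04 and 0.10. How reads in shared bases were assigned is not given in the sources used here, which makes the count of *Rps6kb2* uncertain.

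*Rps6kb1*, the main S6 kinase gene, was at 55.6, 59.3 and 82.3 CPM in OGT-sufficient and 59.9, 44.6 and 59.2 CPM in OGT-deficient samples. OGT-sufficient replicate 3 was again the highest and the other samples overlapped. The log2 fold change was -0.27 over all samples and -0.06 without that replicate. *Rps6kb2* made up 24.4% ± 4.13 of the S6 kinase CPM per kb in OGT-sufficient and 20.3% ± 2.01 in OGT-deficient cells (SD, n = 3), and these shares overlapped.

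*Eif4ebp2*, the more abundant of the binding protein genes among the members, at chr10:61428491-61452661 on the minus strand, was at 55.9, 70.8 and 56.6 CPM in OGT-sufficient and 75.5, 73.3 and 74.6 CPM in OGT-deficient samples. The OGT-deficient values were higher without overlap, though OGT-sufficient replicate 2 came close to them. The log2 fold change was 0.29 with a standard error of 0.130 (edgeR adjusted p = 0.703). *Eif4ebp1* was the lowest member in CPM, between 4.79 and 9.07 CPM, and had a log2 fold change of 0.29 with a 95% interval from -0.45 to 1.03.

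**Figure D3:**
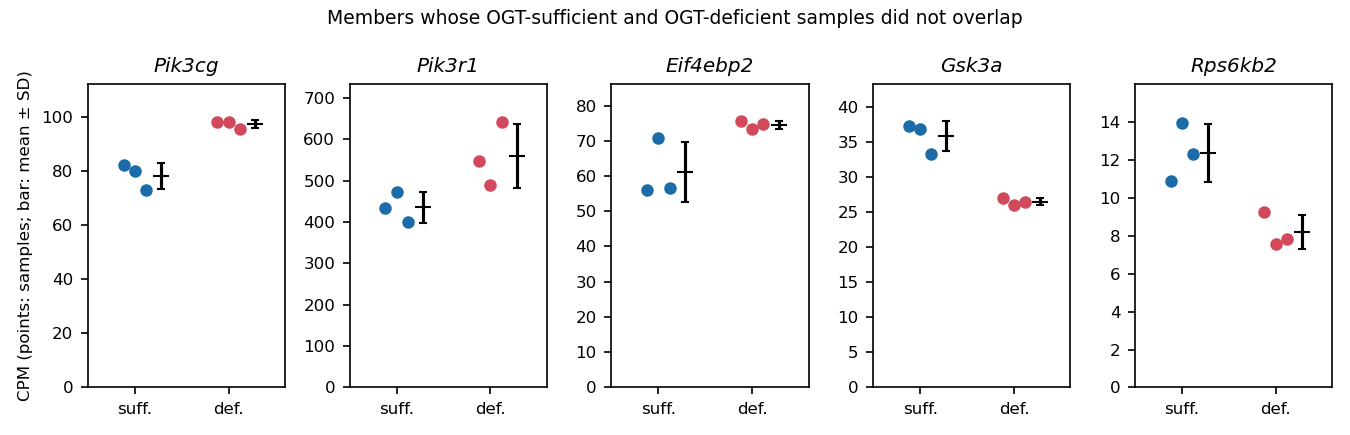
CPM of the 5 pathway genes whose groups did not overlap, from 0, with each sample as a point and the mean ± SD as a bar, for OGT-sufficient (suff., blue) and OGT-deficient (def., red) samples, 3 a group. *Pik3cg*, *Pik3r1* and *Eif4ebp2* were higher and *Gsk3a* and *Rps6kb2* lower in the OGT-deficient samples, and 13.2% of all genes tested also had no overlap.

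Of the AKT substrates, *Gsk3a* had the lowest p of all members. It encodes the alpha form of glycogen synthase kinase 3, which AKT inhibits by phosphorylation, and lies at chr7:25228258-25237851 on the minus strand. Its level was 37.3, 36.8 and 33.3 CPM in OGT-sufficient and 27.0, 26.0 and 26.4 CPM in OGT-deficient samples. All OGT-deficient values lay below the OGT-sufficient ones, and they were nearly equal. The log2 fold change was -0.44, with a standard error of 0.130 (edgeR adjusted p = 0.517). In the annotation, 28.3% of the exon bases of *Gsk3a* are shared with the antisense gene *9130221H12Rik*, which was counted 28 to 59 times and had a log2 fold change of -0.05. Whether strand was used in counting is not given in the sources used here, so reads of the pair may not be separable.

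*Gsk3b*, the beta form with largely overlapping substrates, was at 148, 179 and 161 CPM in OGT-sufficient and 165, 163 and 155 CPM in OGT-deficient samples. The groups overlapped, with a log2 fold change of -0.01 and a 95% interval from -0.27 to 0.24. The share of *Gsk3a* in the CPM per kb of the pair, a ratio within each sample that does not depend on the scaling of the libraries, was 46.0%, 41.0% and 41.3% in OGT-sufficient and 35.6%, 35.1% and 36.6% in OGT-deficient samples. These shares did not overlap, at 42.8% ± 2.82 and 35.7% ± 0.751 (SD, n = 3), a difference of -7.01 percentage points. The difference ran from -7.88 to -5.39 when each sample was left out in turn. The shares rest on the same counts as the log2 fold change of *Gsk3a* and are no separate evidence. In every other set of members whose shares were taken, the samples of the groups overlapped. No test is given for the shares, since 0.1 is the smallest two-sided p that an exact permutation of 3 against 3 samples can reach. *Foxo3*, a forkhead factor that AKT keeps out of the nucleus, had a log2 fold change of 0.13.

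**Figure D4:**
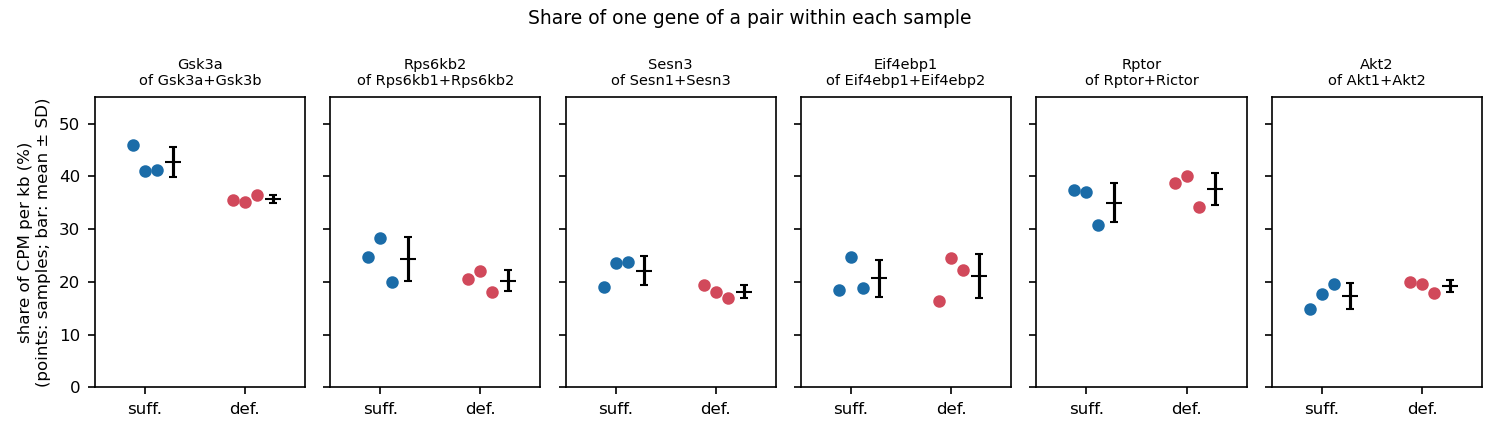
Share of 1 gene in the summed CPM per kb of a pair of pathway genes, in percent from 0, with each sample as a point and the mean ± SD as a bar, for OGT-sufficient (suff., blue) and OGT-deficient (def., red) samples, 3 a group. The *Gsk3a* share is between 41.0% and 46.0% in OGT-sufficient and between 35.1% and 36.6% in OGT-deficient samples, while the samples of the other 5 pairs overlap.

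*Sgk1*, a kinase related to AKT that mTORC2 activates, was the most variable member. It was at 91.0, 63.3 and 46.9 CPM in OGT-sufficient and 33.7, 51.7 and 93.4 CPM in OGT-deficient samples. The lowest and the highest sample were both OGT-deficient, and the log2 fold change was -0.17 with a standard error of 0.356. The summed CPM of 10 macrophage markers, all 10 of them with counts, was 3601, 3291 and 1688 in OGT-sufficient and 1267, 4471 and 5202 in OGT-deficient samples. OGT-deficient replicate 1 was the lowest and OGT-deficient replicate 3 the highest for both measures, and the part of other cells in the *Sgk1* values was not tested.

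In the amino acid branch, no gene lay under an unadjusted p of 0.05. *Rraga*, the RAG GTPase gene with the highest level per kilobase, was at 32.5, 34.1 and 22.5 CPM in OGT-sufficient and 26.7, 23.4 and 28.2 CPM in OGT-deficient samples, and OGT-sufficient replicate 3 was the lowest. *Rraga* had a log2 fold change of -0.19 and its partner *Rragc* of 0.03. *Lamtor1*, which encodes the lysosomal anchor of the Ragulator complex, was at 21, 23.1 and 12.6 CPM in OGT-sufficient and 24.4, 25.2 and 22.7 CPM in OGT-deficient samples. Its log2 fold change was 0.35, and 0.14 without OGT-sufficient replicate 3. In the annotation it shares 18.7% of its exon bases with the opposite-strand gene *Lrrc51*.

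The stress-induced inhibitors act upstream of mTORC1, *Ddit4* through the TSC complex and the sestrins through the amino acid branch. *Ddit4* was at 125, 135 and 66.9 CPM in OGT-sufficient and 127, 148 and 192 CPM in OGT-deficient samples. The groups overlapped, and OGT-sufficient replicate 3 was by far the lowest. *Ddit4* had the highest log2 fold change of the members, 0.52 with a standard error of 0.256 (edgeR adjusted p = 0.731), which was 0.27 without OGT-sufficient replicate 3. *Sesn1* had a log2 fold change of 0.08 and *Sesn3* of -0.27, with a 95% interval from -0.62 to 0.09. *Sesn3* made up 22.1% ± 2.72 of the CPM per kb of this pair in OGT-sufficient and 18.2% ± 1.19 in OGT-deficient cells (SD, n = 3). These shares overlapped, and *Sesn2*, which is not a member, was left out of them.

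OGT-sufficient replicate 3 held the highest value of 7 of the 36 members and the lowest of 9, while the other samples were highest for 2 to 9 members and lowest for 4 to 9. Over all genes tested it was the highest sample for 27.4% and the lowest for 23.8%. Without it the log2 fold change of *Pik3r5* moved from -0.07 to 0.23 and that of *Pik3cd* from 0.17 to 0.27, the latter under an unadjusted p of 0.05 in edgeR. The values of *Gsk3a*, *Rps6kb2*, *Pik3cg* and *Pik3r1* without this sample were -0.48, -0.59, 0.27 and 0.31. Still, no member passed an FDR of 0.1, and the median over the members was 0.08. The neutrophil, B cell and erythroid markers that were high in this sample are given above, and their part in these values was not tested.

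**Figure D5:**
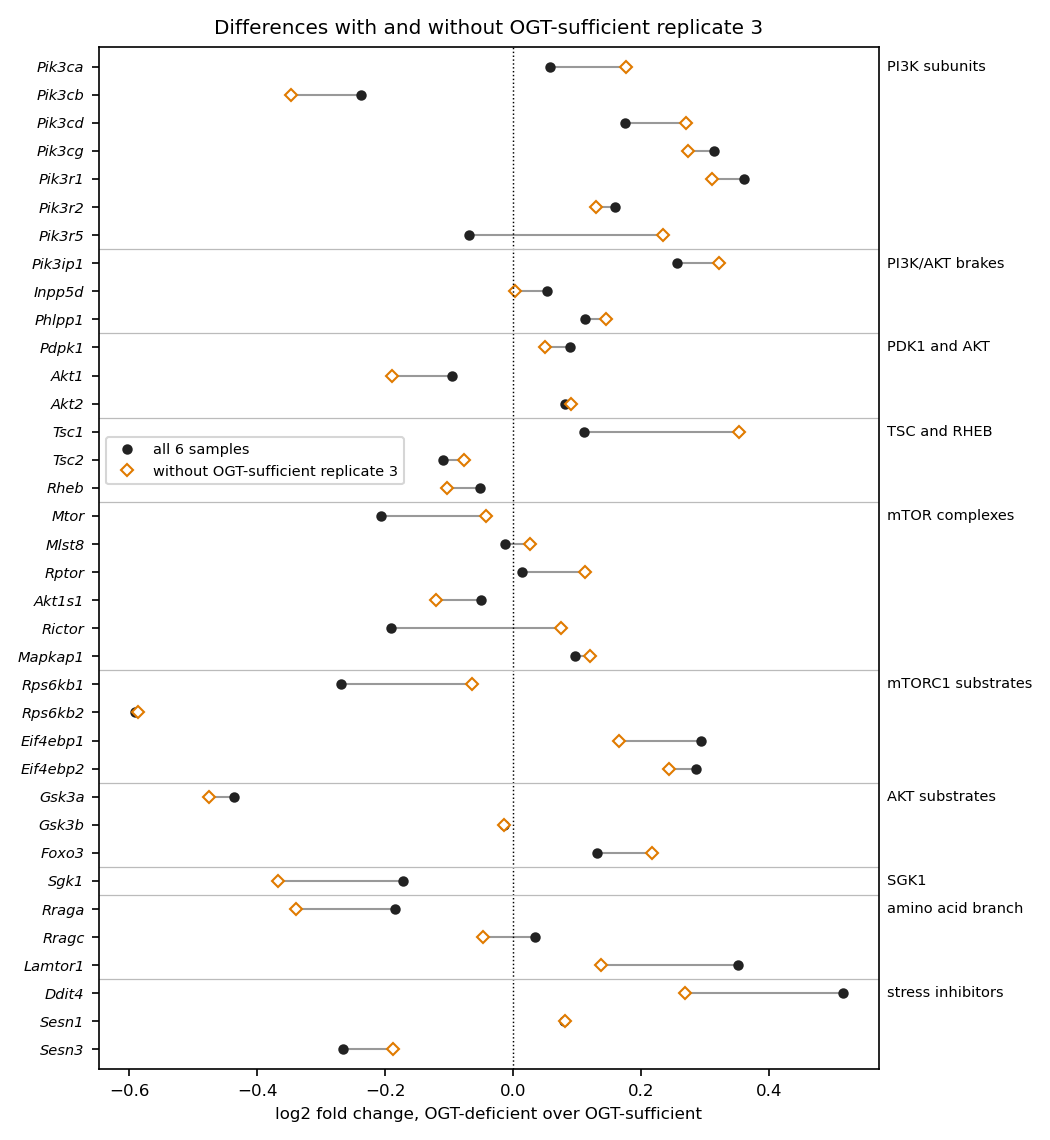
Log2 fold change of each pathway gene, OGT-deficient over OGT-sufficient, with all 6 samples (black) and without OGT-sufficient replicate 3 (orange diamonds), joined by lines and grouped by role. *Rictor*, *Pik3r5*, *Mlst8* and *Rragc* cross 0, *Tsc1* moves from 0.11 to 0.35, and *Gsk3a* and *Rps6kb2* stay below -0.4.

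Beside the members, a list of 58 further genes of the pathway was examined, which holds further PI3K subunits, phosphatases and regulators of the RAG GTPases, AMPK subunits and translation factors. Of these, 52 passed the low-count filter and none was called at an FDR of 0.1. Their median log2 fold change was 0.02, with 24 below 0 and 28 above. At an unadjusted p under 0.05 there was 1 gene, or 1.92%, against 7.1% of all genes tested, and it was lower in OGT-deficient cells. It was *Rragb*, a close relative of *Rraga* that can replace it in the RAG heterodimer. *Rragb* was counted 12, 10 and 15 times in OGT-sufficient and 6, 5 and 5 times in OGT-deficient samples, which did not overlap. At these low counts the log2 fold change was -1.24 with a standard error of 0.383 (edgeR adjusted p = 0.546). Another 3 genes of this list had groups that did not overlap, each lower in OGT-deficient cells, so that 4 of the 52, or 7.69%, had no overlap, against 13.2% of all genes tested.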

How the data were processed

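RNA of sorted YFP+ Treg cells, 3 OGT-sufficient and 3 OGT-deficient samples grouped by the genotype in their labels, was measured by paired-end RNA sequencing. The authors deposited whole-number counts per gene and sample, without normalization. The submitters' processing notes name Trimmomatic 0.33, FastQC, Bowtie2 2.2.4.0, featureCounts, edgeR and the build mm10, while the paper's methods name Cuffquant for quantification, and annotation, strand setting and handling of shared reads are not given in the sources used here. The deposited table also holds group means, p-values, fold changes, weighted differences and multiple-testing corrections of the authors' own comparison, which were not used. Total counts were of about the same size in all samples, and 3 counts are 0.756 to 0.805 CPM.

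The tests were run with edgeR 4.0.16 (R 4.3.3) and summaries were made in Python 3.11.15. edgeR's quasi-likelihood test was fitted to the whole table after TMM scaling, without pairing of samples. Genes were kept by filterByExpr (minimum count 10), and p-values of the 10949 genes left were adjusted by the Benjamini-Hochberg method. CPM are counts scaled to the TMM-adjusted library size, and CPM per kb use merged exon lengths of GENCODE M21, in which 23375 of the 24420 symbols were found (678 more by RefSeq synonyms). Gene coordinates and shared exon bases are from GENCODE M21 (GRCm38), matched by symbol. The members and gene lists were chosen with earlier results of these data known. Values in every sample are given for members with an unadjusted p under 0.05 or no overlap between groups, for the central kinase genes (*Mtor*, *Rptor*, *Rictor*, *Rps6kb1*, *Rps6kb2*, *Akt1*, *Akt2*) and for the member of each role with the highest level per kb. *Tsc1*, *Lamtor1*, *Pik3r5*, *Eif4ebp1* and *Mlst8* were chosen for closer description after seeing their values. Of the other pathway genes, those with an unadjusted p under 0.05 are named. Alternatives were DESeq2 1.42.0, edgeR's exact test, other scalings and filters, a length and GC correction, leaving out each sample, and a block for the replicate number. Samples with the same replicate number did not deviate together (correlations of -0.281, 0.00726 and -0.118). The sources used here state no pairing, and these correlations cannot tell whether samples were processed together.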

Additional observations from a re-analysis of the deposited data

How the results depend on the processing

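No member passed an FDR of 0.1 in any of the 14 alternatives, and of 517 log2 fold changes of the members and *Rragb* under them, 489 kept their direction. The members at an unadjusted p under 0.05, 4 as reported, numbered 2, or 5.56%, with DESeq2, against 4.13% of all genes tested. With the replicate number as a block there were 3, or 8.33%, against 6.2%, and *Pik3r1* was lost. When a sample was left out they numbered between 2, or 5.56% (without OGT-deficient replicate 3), and 6, or 16.7%. The share of all genes tested then lay between 4.13% and 7.91%. The members without overlap, 5 as reported, numbered 7, or 19.4%, with library size only, against 11.6% of all genes tested, and between 7 and 11, or 19.4% to 30.6%, when a sample was left out, where 19.5% to 24.9% of all genes tested had no overlap. The median over the members, 0.04, ran from 0.04 to 0.08 when a sample was left out and was -0.0047 with library size only and 0.089 without a low-count filter. Of the other pathway genes, 1 lay under an unadjusted p of 0.05 as reported. With DESeq2 it was 0 of 52, against 4.13% of all genes tested, and with at least 10 counts in every sample 0 of 50, against 7.23%. Without a low-count filter it was 5 of 58, against 6.13%, and with the replicate block 3 of 52, against 6.2%. When a sample was left out it was between 1 and 4 of 53 or 54, against 4.13% to 7.91%. Of all genes tested, 3 passed an FDR of 0.1, against 38 with DESeq2, 80 with edgeR's exact test, 131 without a filter, 1 with the length and GC correction and 0 with the block, and between 0 and 9 when a sample was left out.

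Log2 fold changes changed sign in 13 genes, all between -0.24 and 0.08 as reported. With library size only, *Rptor* was at -0.033 and *Rragc* at -0.011. Without a low-count filter *Mlst8* was at 0.037 and *Gsk3b* at 0.034, and *Gsk3b* was at 0.025 with the length and GC correction. When each sample was left out in turn, the values ran from -0.38 to 0.043 for *Pik3cb*, from -0.24 to 0.23 for *Pik3r5*, from -0.19 to 0.0051 for *Akt1*, from -0.19 to 0.0066 for *Tsc2* and from -0.10 to 0.058 for *Rheb*. They ran from -0.18 to 0.14 for *Mlst8*, from -0.063 to 0.15 for *Rptor*, from -0.12 to 0.031 for *Akt1s1*, from -0.30 to 0.075 for *Rictor* and from -0.039 to 0.064 for *Gsk3b*. For *Sgk1* they ran from -0.62 to 0.15, for *Rragc* from -0.048 to 0.16 and for *Sesn1* from -0.016 to 0.17. The cause of these moves was not tested. The overlap count was not run under the length and GC correction. *Rps6kb2* rests on 30 to 52 counts a sample, and its 95% interval ran from -1.07 to -0.11, while *Sgk1*, on 131 to 358 counts, had one from -0.98 to 0.63.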
